A study of Rattus norvegicus with 3 samples.

Results

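The comparison described here sets the middle of the villus against the crypt in rat jejunum. It rests on 2 of the 3 samples of the series, and covers 3825 of the 4379 genes that the array's deposited table names. Epithelial cells of the small intestine are born in the crypt, a pit at the villus base where stem cells and their daughters divide. They then move up the villus, stop dividing and take up the work of digestion and absorption, until they are shed at the tip. Rapid division needs DNA copying, chromosome segregation and the making of ribosomes, whereas absorption needs brush border enzymes, membrane transporters and the machinery that packs dietary fat into chylomicrons.

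The tissue came from male Sprague-Dawley rats, 6 weeks of age, with no treatment named. Frozen jejunum was cut across the villi into 10 µm sections, and 10 sections were joined into each fraction, so that a fraction spans 100 µm and the column holds 7 of them. The middle villus sample was fraction 4, which spans 300 to 400 µm from the villus top, and the crypt sample was fraction 6, which spans 500 to 600 µm. Fraction 1, the top villus sample, is given only for orientation. Each part has 1 sample, how many animals stand behind it is not stated, and a fraction holds all cells at that depth and not epithelium alone.

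Values are log2 levels as deposited. A level under the 25th percentile of its column was treated as dim, and this floor lay at 4.15 in the middle villus and 6.05 in the crypt, although the column medians were 7.83 in the middle villus and 7.81 in the crypt. A gene dim in both parts was not compared. A gene dim in 1 part has a difference that is only a bound on the deposited values, written as "at least". Medians over a list take such bounds at their value. The middle villus floor lay 1.90 under the crypt's. Falls written as "at least" are therefore smaller with 1 floor of log2 6 in both parts. "Higher" and "lower" mean a difference of 2-fold or more. With 1 sample a side no test is possible and none of these differences has a replicate check. The only error scale in the table is the disagreement between different probes of the same gene, whose pooled SD was 0.90 on the log2 scale over 222 genes, so that 2 SD is 3.49-fold. It does not cover differences between animals or arrays.

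Of the 3825 genes compared, 730 (19.1%) were higher in the middle villus and 1127 (29.5%) were lower. Beyond 2 SD between probes, 302 (7.9%) were higher and 794 (20.8%) lower. The median difference over all genes was -0.08. Many of the lower genes had a dim or near-dim middle villus level: 465 of the lower genes and 172 of the higher ones were bounds, and in 673 of the lower genes the middle villus level lay under the crypt's floor. Among the 2899 genes measured in both parts, 558 (19.2%) were higher and 662 (22.8%) lower. With a common floor of log2 6 in both columns, 740 genes (20.1%) were higher and 882 (23.9%) lower, and after quantile normalization the counts were 935 and 939. The gene just inside the limit on the higher side stood at 1.001 and the one just outside at 1.000.

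**Figure D1:**
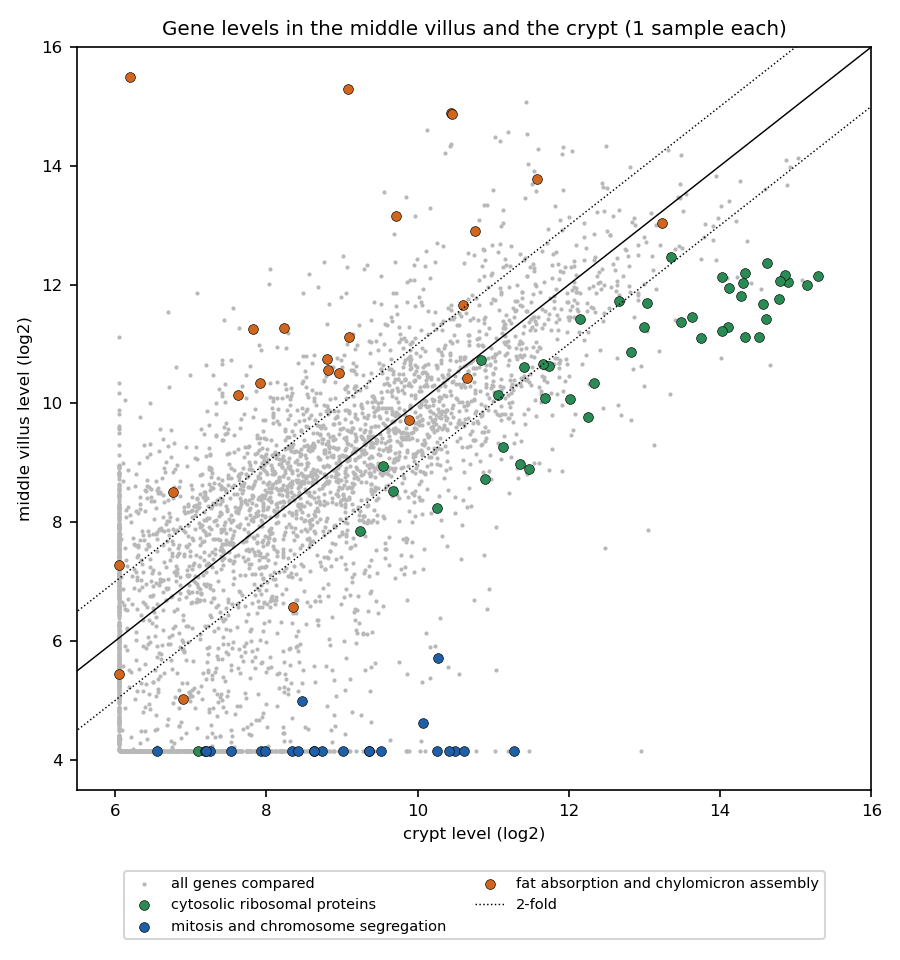
Level of each gene in the middle villus (vertical axis, log2) against the crypt (horizontal axis, log2), 1 sample each, with the 2-fold lines dotted. Points on the lowest horizontal row and the left-hand column are dim and drawn at the floors of 4.15 (middle villus) and 6.05 (crypt); fat absorption genes lie mostly above the lines, and mitosis and ribosomal protein genes mostly below.

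Genes of mitosis were lower in the middle villus without exception among those compared: 24 of 24 were lower and 0 higher, with a median difference of -4.52. In 21 of them the middle villus level was dim, so most of these differences are bounds and the median's size is set by the floors. With 1 floor of log2 6 in both parts 23 were lower and the median was -2.69, and after quantile normalization 23 were lower and it was -3.54. Fewer dividing cells and less of each RNA per cell cannot be told apart in such fractions, here or in the lists that follow. Cdk1, the kinase that drives entry into mitosis, was dim in the middle villus against 10.49 in the crypt, at least 81.5-fold lower. Mki67, the antigen used to mark cycling cells, was at least 76.8-fold lower, dim in the middle villus against 10.41 in the crypt. Spc24, a subunit of the kinetochore's Ndc80 complex, was at least 139.5-fold lower. The kinase Plk1 was at least 36.99-fold lower, the survivin gene Birc5 at least 29.2-fold and the spindle motor Kif11 at least 22.3-fold.

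The 3 members measured in both parts carry the same direction without a bound. Pttg1, the securin that holds back chromosome separation, stood at 4.62 in the middle villus and 10.07 in the crypt, 43.7-fold lower. Stmn1, which destabilises microtubules, stood at 5.72 in the middle villus and 10.27 in the crypt, 23.4-fold lower. Incenp, the scaffold of the chromosomal passenger complex, was 11.2-fold lower, at 4.98 in the middle villus against 8.47 in the crypt. All 3 differences exceed 2 SD between probes.

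Promoters of mitotic genes are known to carry CCAAT boxes, bound by the factor NF-Y, and the cell cycle homology region, TTTGAA, bound by the MuvB core of the DREAM and FOXM1 complexes. The 250 bases before the annotated start were read for 3825 genes from RefSeq's promoter windows on the GRCr8 assembly, of which 3217 had a window, and each motif was searched on both strands. CCAAT was found in 17 of the 18 mitosis promoters with a window (94.4%), against 36.4% of all 3217. TTTGAA was found in 12 of the 18 (66.7%), against 9.95% of all. Both motifs together were found in 12 of 18 (66.7%), against 3.73% of all. In the DNA replication list TTTGAA was found in 1 of 20 promoters (5.0%) and CCAAT in 10 of 20 (50.0%). In the list of chromatin proteins of dividing cells TTTGAA was found in 4 of 16 and CCAAT in 11 of 16 (68.8%), and in the G1 list each was found in 2 of 7 (28.6%). These motifs were chosen as textbook ones with the letters of several of these promoters already seen, and a match is a description of the letters, not a binding site. The promoters of Cdk1 and Pttg1 are printed because they hold both motifs, each 5′ to 3′ on the gene's own strand, with every motif searched in capitals on either strand. Cdk1 lies at chr20:19265043-19265292 on the plus strand and Pttg1 at chr10:28406327-28406576 on the minus strand.
Cdk1: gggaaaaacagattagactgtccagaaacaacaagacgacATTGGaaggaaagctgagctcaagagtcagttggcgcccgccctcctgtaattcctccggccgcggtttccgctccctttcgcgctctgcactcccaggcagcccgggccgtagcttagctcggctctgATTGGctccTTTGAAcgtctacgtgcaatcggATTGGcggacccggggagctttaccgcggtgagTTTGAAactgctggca
Pttg1: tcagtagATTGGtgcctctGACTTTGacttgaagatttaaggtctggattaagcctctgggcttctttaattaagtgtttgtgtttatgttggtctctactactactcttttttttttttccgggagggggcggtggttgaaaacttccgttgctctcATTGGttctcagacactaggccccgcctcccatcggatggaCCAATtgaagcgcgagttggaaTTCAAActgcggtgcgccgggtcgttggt
Cdk1 holds CCAAT 3 times, always as ATTGG on this strand, and TTTGAA 2 times. Pttg1 holds CCAAT 3 times and TTTGAA 1 time, as TTCAAA, together with 1 GACTTTG, which is CAAAGTC on the other strand, a core that the nuclear receptor HNF4 can bind.

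In the list of replication licensing and fork genes, 20 of 22 were lower and 0 higher. The median was -3.61, and 9 of the 10 measured in both parts were lower. Cdt1, which loads the replicative helicase, stood at 4.31 in the middle villus and 10.05 in the crypt and was 53.4-fold lower. It was the largest fall of any gene measured in both parts by the naming rule, with a middle villus level just above the floor of 4.15. The flap nuclease Fen1 was 16.8-fold lower, at 6.87 in the middle villus against 10.94 in the crypt. Pcna, the sliding clamp, was 9.22-fold lower and kept a level of 7.37 in the middle villus, against 10.58 in the crypt. Helicase subunits Mcm6, Mcm5 and Mcm2 were dim in the middle villus, at least 68.8-fold, at least 41.9-fold and at least 11.4-fold lower. Gmnn, the inhibitor of Cdt1, differed by -0.95 and Pole3, a polymerase epsilon subunit, by -0.79, both short of 2-fold.

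The supply of nucleotides followed in part: 11 of 16 genes were lower and 1 higher. Dut, which clears dUTP, was at least 42.3-fold lower, the thymidylate kinase Dtymk at least 9.71-fold lower and Gmps, which makes GMP, 15.7-fold lower at 6.14 in the middle villus against 10.11 in the crypt. The UMP/CMP kinase Cmpk1 went the other way, at 12.60 in the middle villus and 10.87 in the crypt, 3.31-fold higher and within 2 SD between probes. Hprt1, of the purine salvage route, differed by 0.44. Of the list's differences, 9 are bounds, and the 7 genes measured in both parts had a median of -0.99, against -2.67 for the whole list.

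Chromatin proteins abundant in dividing cells were measured in both parts throughout, with no bound among 17, and 10 were lower and 0 higher. H2ax, the variant histone that marks DNA breaks, was 27.02-fold lower, at 5.30 in the middle villus against 10.06 in the crypt. Dek, a DNA-bending protein, was 23.7-fold lower and the nucleosome-binding protein Hmgn1 8.51-fold lower. The variant histone gene H2az1 stood at 9.98 in the middle villus and 12.65 in the crypt. The deacetylases Hdac1 and Hdac2 differed by -0.05 and -0.40. Of 13 repair genes 8 were lower, led by the base excision enzyme Apex1, at least 161-fold lower, and 1 was higher, Parp2, at 9.58 in the middle villus against 7.65 in the crypt, a direction that reverses when dim values are kept. The 7 repair genes measured in both parts had a median of -0.27.

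Myc, the growth-promoting transcription factor, was dim in the middle villus and at least 16.7-fold lower from 8.21 in the crypt. The 3 inhibitors called, all of cyclin-dependent kinases, were higher: Cdkn1a (p21) at least 5.69-fold, at 8.56 in the middle villus and dim in the crypt, Cdkn1b (p27) at least 2.46-fold, and Cdkn2b (p15) 2.34-fold, at 8.91 in the middle villus against 7.69 in the crypt. Cdkn1b and Cdkn2b lie within 2 SD between probes. The list of G1 regulators held 9 compared genes, of which 3 were higher and 2 lower, beside 19.1% and 29.5% of all genes. The lower gene other than Myc was measured in both parts and lay beyond 2 SD between probes. Cdk7 differed by -0.09.

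Stem and progenitor markers were lower in 6 of 8 genes and higher in 0. Smoc2, a secreted protein known from the Lgr5 stem cell signature in mouse, was at least 22.8-fold lower from 8.65 in the crypt. Ephb2, the receptor that keeps progenitors in the crypt in mouse, was at least 7.32-fold lower and the transcription factor Sox9 at least 6.15-fold lower. Hes1, the Notch target that holds cells on the absorptive path, stood at 7.14 in the middle villus against 9.47 in the crypt, 5.02-fold lower. Hopx and Sox4 differed by -0.17 and -0.67. Only 4 of these 8 genes were measured in both parts, and their median was -1.23. With 1 floor of log2 6 in both parts 4 of the 8 were lower, with a median of -0.89, and after quantile normalization 5, with a median of -1.36, so the count of 6 rests on the floors.

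Signals that pattern the column gave 6 lower and 3 higher genes of 13. The Notch ligand Jag1 was at least 31.2-fold lower and the Wnt transducer Dvl1 at least 28.2-fold lower, the Wnt co-receptor Lrp6 6.58-fold lower at 5.45 in the middle villus against 8.17 in the crypt, and Grem1, a secreted blocker of BMP signals, at least 6.69-fold lower. Higher were Ihh, the hedgehog ligand that differentiated epithelium secretes, at 11.64 in the middle villus and 9.72 in the crypt, the BMP feedback inhibitor Smad7, 2.85-fold higher, and the EGF family ligand Areg, at least 2.6-fold higher. The list's median was -0.44, and 0.02 after quantile normalization, so that its direction as a whole depends on scaling.

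Ribosome assembly in the nucleolus was lower in 16 of 21 genes and higher in 0, with a median of -2.64, and in 6 of the 11 measured in both parts. Nolc1, a nucleolar phosphoprotein, stood at 5.44 in the middle villus and 10.54 in the crypt, 34.2-fold lower. Dkc1, the pseudouridine synthase of small nucleolar RNPs, was 16.4-fold lower and Nop58, a core protein of the box C/D class of those particles, at least 59.4-fold lower. Npm1, the abundant nucleolar chaperone, was 3.52-fold lower but stood at 9.48 in the middle villus. Polr1c and Nop10 differed by -0.74 and -0.51.

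Cytosolic ribosomal proteins are the protein part of the translating ribosome. Of 45 genes 37 were lower and 0 higher, 44 of them were measured in both parts, and the differences ran between -3.40 and -0.10 with a median of -2.16. Rpl13 stood at 11.11 in the middle villus and 14.51 in the crypt, 10.5-fold lower. Rps6, the subunit phosphorylated downstream of mTOR, was 8.1-fold lower, at 11.76 in the middle villus against 14.78 in the crypt, and Rps3a 8.94-fold lower. Rps13 and Rps10 differed by -0.10 and -0.59. Ribosomal protein genes have many near-identical pseudogene copies, so a probe may read more than 1 locus. Under the 3 other scalings the median ran from -2.18 to -2.12.

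Translation factors were lower in 20 of 33 and higher in 2. Eef1a1, the elongation factor that brings tRNAs to the ribosome, stood at 12.10 in the middle villus and 14.10 in the crypt. The initiation factor subunits Eif3d and Eif3l were 9.03-fold and 6.12-fold lower. Among tRNA synthetases 7 of 12 were lower, such as Iars1 for isoleucine, 5.01-fold, and 1 was higher, Rars1 for arginine, at 10.94 in the middle villus against 8.25 in the crypt. Splicing proteins were lower in 24 of 44 genes and higher in 1. The U1 component Snrpc was 46.2-fold lower, at 5.51 in the middle villus against 11.04 in the crypt, and Magoh, of the exon junction complex, 19.9-fold lower. General transcription factors and polymerase II subunits were lower in 10 of 23 and higher in 2, with the large subunit Polr2a differing by -0.90.

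Mitochondrial ribosome, import and folding genes were lower in 30 of 57 and higher in 1, with a median of -1.21. Tfam, which packs and transcribes mitochondrial DNA, stood at 5.56 in the middle villus and 10.40 in the crypt, 28.7-fold lower. The matrix chaperonin pair Hspe1 and Hspd1 was 14.3-fold and 4.15-fold lower, and the chaperone Hspa9 5.01-fold lower. In contrast, 5 of 53 respiratory chain genes were lower and 2 higher, both shares under those of all genes, with a median of -0.49. The ATP synthase subunit Atp5f1a stood at 14.13 in the middle villus against 15.03 in the crypt, and the complex II subunit Sdhb at 12.35 in the middle villus against 11.53 in the crypt. The 5 lower genes were Atp5f1e, a small ATP synthase subunit that was dim in the middle villus against 12.96 in the crypt and at least 449-fold lower, Micos10, which shapes the inner membrane, 35.9-fold lower, Cox6c, 9.44-fold lower, and the complex I subunits Ndufv3, at least 19.9-fold lower, and Ndufs8, 2.2-fold lower. The 2 higher genes were Cyc1, the cytochrome of complex III, 4.995-fold higher, and Slc25a5, an ADP/ATP carrier, 2.26-fold higher. The difference between the 2 lists was not tested.

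Counts for energy metabolism stand beside 19.1% higher and 29.5% lower among all genes. Fatty acid oxidation had 10 higher and 1 lower genes of 24. Acaa2, the last enzyme of the mitochondrial spiral, stood at 11.41 in the middle villus and 9.38 in the crypt, 4.07-fold higher. Decr1, needed for unsaturated chains, was 3.62-fold higher and the long-chain dehydrogenase Acadl 3.19-fold higher, the first past 2 SD between probes and the second within it. In the citric acid cycle 3 of 25 were higher and 3 lower, with citrate synthase, Cs, at 12.65 in the middle villus against 11.24 in the crypt. Glycolysis and the pentose phosphate path had 4 higher and 4 lower of 17: the lactate and pyruvate carrier Slc16a3 was 7.23-fold higher and aldolase, Aldoa, 3.19-fold higher, while transketolase, Tkt, which feeds ribose for nucleotides, was 4.27-fold lower at 12.14 in the middle villus against 14.23 in the crypt. Lipid synthesis had 6 lower and 2 higher of 21, beside 29.5% and 19.1% of all genes, with a median of -0.28. Its largest fall was a bound, fatty acid synthase, Fasn, at least 25.9-fold lower.

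**Figure D2:**
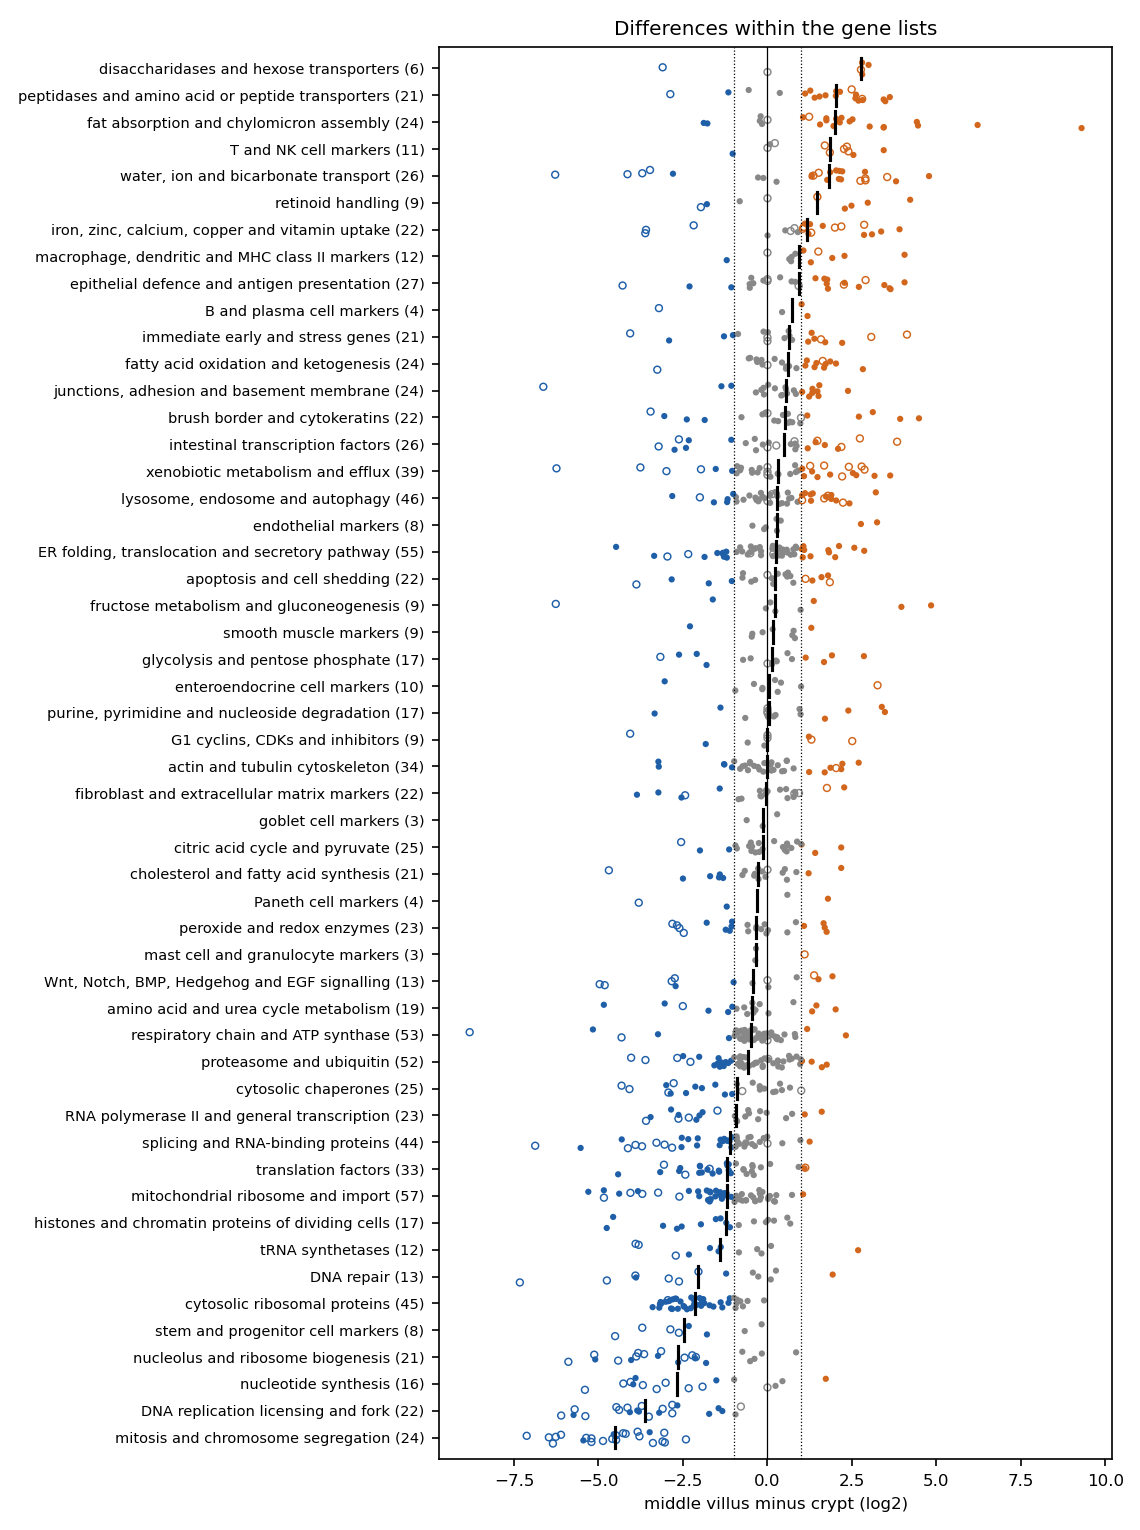
Middle villus minus crypt difference (horizontal axis, log2) of every gene compared in each list with 3 or more such genes, 1 sample a side. Points are genes, open points are bounds, the black bar is the list's median, dotted lines mark 2-fold and the number of genes stands in brackets; medians run between -4.52 for mitosis and 2.78 for disaccharidases and hexose transporters.

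The 2 largest rises among genes measured in both parts, Apoa1 and Fabp2, belong to fat absorption. That list held 24 compared genes, 18 of them higher and 2 lower. Its median was 1.99, and 22 were measured in both parts. Apoa1, the apolipoprotein of HDL and chylomicrons, stood at 15.50 in the middle villus and 6.20 in the crypt, a 628-fold difference. Its crypt level lay just above the floor, and in the top villus it stood at 15.24. The fatty acid carriers Fabp2 and Fabp1 were 74.4-fold and 21.9-fold higher, Fabp2 at 15.29 in the middle villus against 9.07 in the crypt and Fabp1 at 14.90 in the middle villus against 10.44 in the crypt. Dgat1, which makes triglyceride, was 21.4-fold higher, at 14.87 in the middle villus against 10.45 in the crypt.

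Apoa4 and Apoc3, both chylomicron apolipoproteins, were 10.8-fold and 8.13-fold higher. Mttp, which loads lipid on to apolipoprotein B, stood at 10.76 in the middle villus and 8.80 in the crypt, 3.87-fold higher, and the fatty acid translocase Cd36 was 2.94-fold higher, within 2 SD. Among acyl-CoA synthetases Acsl5 was 4.4-fold higher while Acsl3 and Acsl4 were 3.43-fold and 3.7-fold lower. Acsl1 differed by -0.16, and Dbi, the acyl-CoA binding protein, by -0.20.

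The letters TATAAA stand in 6 of the 17 fat absorption promoters with a window (35.3%), against 7.06% of all promoters read and 0 of the 18 mitosis promoters. They are not particular to absorption, with 3 of 6 endothelial promoters (50%) and 4 of 14 amino acid and urea cycle promoters (28.6%). Other absorption lists held fewer, with 1 of 6 sugar uptake promoters (16.7%) and 3 of 19 peptidase and amino acid carrier promoters (15.8%). GTTAAT, part of the HNF1 motif, was found in 1 of 17 (5.88%), against 4.1% of all, and CAAAGTC in 2 of 17 (11.8%), against 3.11% of all. Fabp1, at chr4:104749090-104749339 on the plus strand, and the sucrase-isomaltase gene Si, at chr2:159884903-159885152 on the minus strand, are printed because both hold TATAAA and GTTAAT. Every motif searched is again in capitals.
Fabp1: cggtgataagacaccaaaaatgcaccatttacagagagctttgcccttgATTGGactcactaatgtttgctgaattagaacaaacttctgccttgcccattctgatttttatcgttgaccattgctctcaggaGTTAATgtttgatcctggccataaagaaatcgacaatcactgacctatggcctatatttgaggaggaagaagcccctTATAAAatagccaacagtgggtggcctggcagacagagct
Si: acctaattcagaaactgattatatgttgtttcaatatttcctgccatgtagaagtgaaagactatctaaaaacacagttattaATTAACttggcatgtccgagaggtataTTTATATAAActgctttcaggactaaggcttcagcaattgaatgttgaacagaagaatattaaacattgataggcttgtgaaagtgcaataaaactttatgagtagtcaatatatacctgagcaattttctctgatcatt
In Fabp1 the TATAAA starts 40 bases before the annotated start, and in Si there are 2 overlapping matches farther upstream, 1 of them read from the other strand, and GTTAAT stands as ATTAAC.

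Of 6 genes for sugar uptake, 4 were higher and 1 was lower. Sucrase-isomaltase, Si, stood at 10.95 in the middle villus and 8.14 in the crypt, 6.99-fold higher. The fructose transporter Slc2a5 was 6.96-fold higher, at 11.86 in the middle villus against 9.06 in the crypt, and Slc2a2, the basolateral hexose transporter, 7.95-fold higher. Slc5a1, the sodium-glucose cotransporter, was dim in the crypt and at least 6.8-fold higher. Lactase, Lct, stood at 5.89 in the middle villus, under the crypt's floor, and gives no difference. In the top villus, where the floor is 5.15, Slc2a2 and Slc2a5 stood at 5.55 and 5.91, and Si was dim. In fructose use and glucose synthesis 3 of 9 were higher and 2 lower, beside 19.1% and 29.5% of all genes. Glucose-6-phosphatase, G6pc1, was 15.6-fold higher in the middle villus and ketohexokinase, Khk, differed by 0.23 at 13.70 in the middle villus against 13.47 in the crypt.

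In protein digestion, 17 of 21 genes were higher, with 2 lower. The brush border peptidases Dpp4, Mep1a, Mme and Anpep were 11.2-fold, 10.8-fold, 7.03-fold and 6.46-fold higher, with Anpep at 14.28 in the middle villus and 11.59 in the crypt. The cytosolic leucine aminopeptidase Lap3 was 12.3-fold higher. Slc15a1, the carrier of di- and tripeptides, stood at 12.14 in the middle villus against 9.52 in the crypt, 6.15-fold higher. Lower were Slc1a5, a glutamine carrier of dividing cells, at least 7.33-fold, and Slc7a1, the cationic amino acid carrier, 2.23-fold.

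For ions, bicarbonate and water, 18 of 26 transport genes were higher, and 5 were lower. The lower ones include the potassium channel subunits Kcne3 and Kcnq1, at least 77.8-fold and at least 17.7-fold lower, the calcium-activated potassium channel Kcnn4, 6.95-fold lower, and the cotransporter Slc12a2, at least 13.04-fold lower, all parts of the chloride secretion path. Sodium absorbing exchangers were higher, Slc9a2 4.52-fold and Slc9a3 4.32-fold, with Slc9a3 at 9.45 in the middle villus against 7.33 in the crypt. Clca4 stood at 11.86 in the middle villus against 7.08 in the crypt and was 27.5-fold higher. The water and glycerol channel Aqp3 was 13.97-fold higher and the carbonic anhydrase Car2 at least 11.6-fold higher. Guanylin, Guca2a, and its receptor Gucy2c were 4.64-fold and 4.09-fold higher.

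Mineral and vitamin uptake was higher in 14 of 22 and lower in 3. S100g, the calcium-binding protein calbindin-D9k, stood at 14.33 in the middle villus and 10.43 in the crypt, a log2 difference of 3.91. The zinc importer Slc39a4 was 10.3-fold higher and the ferroxidase Heph, which acts in iron export, 7.25-fold higher. Ferritin heavy chain, Fth1, stood at 14.54 in the middle villus against 11.44 in the crypt, whereas the transferrin receptor Tfrc, through which dividing cells take up iron, was at least 12.3-fold lower. Retinoid handling was higher in 5 of 9 and lower in 2. The retinol dehydrogenase Rdh7 was 18.7-fold higher, the carotene-cleaving enzyme Bco1 7.82-fold and the retinol-binding protein Rbp2 4.89-fold. The lower genes were Rbp4, the plasma carrier of retinol, at least 3.92-fold lower and dim in the middle villus, and Lrat, which esterifies retinol, 3.46-fold lower and within 2 SD.

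**Figure D3:**
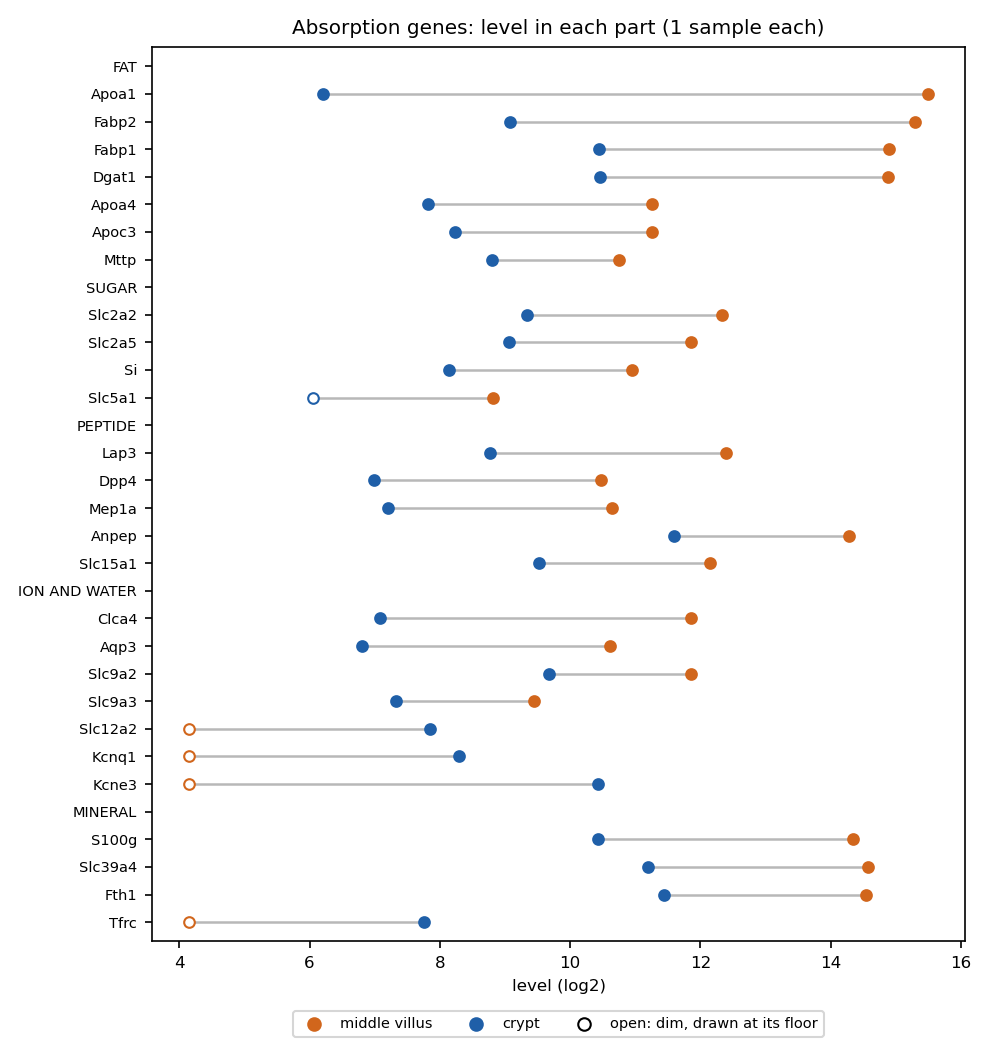
Level (horizontal axis, log2) of 27 absorption and transport genes in the middle villus (orange) and the crypt (blue), 1 sample each, with open points where a part was dim and is drawn at its floor. The middle villus point lies to the right in 23 genes and to the left in Slc12a2, Kcnq1, Kcne3 and Tfrc.

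Of 39 genes of drug and xenobiotic metabolism, 15 were higher and 6 lower. Counts here and in the redox, nucleotide and amino acid lists stand beside 19.1% higher and 29.5% lower among all genes. The cytochromes Cyp3a9 and Cyp2j4 were 12.4-fold and 8.99-fold higher, Cyp3a9 at 11.27 in the middle villus against 7.64 in the crypt. The efflux pumps Abcc2, Abcb1a and Abcg2 were dim in the crypt and at least 6.9-fold, at least 5.31-fold and at least 3.2-fold higher. Mgst1, a membrane glutathione transferase, and Nqo1, a quinone reductase, were at least 75.7-fold and at least 13.5-fold lower. Probes for cytochrome and glutathione transferase families may read several close relatives. Redox enzymes had 9 lower and 4 higher of 23, with catalase, Cat, 3.36-fold higher and Sod2, the mitochondrial superoxide dismutase, at least 5.57-fold lower. Purine and pyrimidine breakdown had 4 higher and 2 lower of 17, among them guanine deaminase, Gda, 5.25-fold higher. Amino acid and urea cycle enzymes had 3 higher and 6 lower of 19: Phgdh, the first enzyme of serine synthesis, was 28.7-fold lower, and the urea cycle enzyme Otc differed by -0.60. Intestinal alkaline phosphatase, Alpi, stood at 11.87 in the middle villus against 8.48 in the crypt, 10.4-fold higher.

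Structural genes were mixed, and their counts stand beside 19.1% higher and 29.5% lower among all genes. In the brush border and keratin list 5 of 22 were higher and 4 lower. Krt20, a keratin of differentiated epithelium, stood at 14.37 in the middle villus and 10.45 in the crypt, 15.2-fold higher. Prap1, a secreted protein of the gut epithelium, was 22.4-fold higher and the mucin Muc13 6.52-fold higher. The brush border motor Myo1a and the scaffold Ush1c differed by 0.62 and 0.20. Junction and adhesion genes were higher in 8 and lower in 3 of 24: Epcam was 5.21-fold and the intestinal cadherin Cdh17 2.85-fold higher, Cldn3 differed by -0.34, and Gjb2, connexin 26, was at least 99.2-fold lower. Cytoskeletal genes had 7 higher and 5 lower of 34, with Tubb5, a tubulin of dividing cells, 9.29-fold lower.

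Transcription factors of the intestine gave 8 higher and 6 lower of 26, beside 19.1% and 29.5% of all genes. Cdx2, the factor that fixes intestinal identity, stood at 11.33 in the middle villus and 11.67 in the crypt, a difference of -0.34. Klf4, which goes with cell cycle exit, was 2.28-fold higher, within 2 SD, and Klf5, which goes with proliferation, 5.32-fold lower at 5.07 in the middle villus against 7.48 in the crypt. Gata5 was 4.25-fold higher and Gata4 differed by 0.82. Nr0b2, the bile acid responsive repressor SHP, was at least 14.3-fold higher, and the clock output factor Dbp at least 6.65-fold. The nuclear receptors Nr1h4 and Nr1i2 differed by 0.69 and 0.82. In the immediate early and stress list 8 of 21 were higher and 4 lower, with Fos 4.63-fold and the kinase gene Sgk1 at least 17.5-fold higher.

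Proteasome and ubiquitin genes were lower in 15 of 52, a share near that of all genes, and higher in 4. The immunoproteasome subunit Psmb8 was 3.37-fold higher, within 2 SD, and Psmb9 differed by -0.42. Cytosolic chaperones were lower in 12 of 25 and higher in 0, with Hsp90aa1 at 8.87 in the middle villus against 11.74 in the crypt. Endoplasmic reticulum and secretory genes gave 11 higher and 11 lower of 55, beside 19.1% and 29.5% of all genes. Herpud1, of ER-associated degradation, was 7.27-fold higher and Lman1, a cargo receptor, 22.3-fold lower. Lysosome and endosome genes were higher in 15 and lower in 6 of 46, and cathepsin B, Ctsb, was 5.37-fold higher. Apoptosis genes had 5 higher and 4 lower of 22, beside 19.1% and 29.5% of all genes. The pore former Bax was at least 14.7-fold lower and the death receptor Fas 3.03-fold higher, the latter within 2 SD.

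Of 27 defence and antigen presentation genes, 13 were higher and 3 lower. Reg3b, an antimicrobial lectin, stood at 15.07 in the middle villus and 11.43 in the crypt, 12.5-fold higher. The class I light chain B2m was 10.99-fold higher, at 14.49 in the middle villus against 11.03 in the crypt, and RT1-Da, a class II chain, 16.6-fold higher. The chemokine Ccl28 was at least 19.5-fold lower and Dmbt1, a secreted scavenger protein, 4.95-fold lower. Some markers of immune cells were also higher. For T and NK cells 7 of 11 markers were higher and 1 was lower, with the granzyme Gzma at 9.77 in the middle villus against 6.33 in the crypt and the T cell receptor chain Cd3d 5.83-fold higher, while Cd3g was 2.04-fold lower. The median level of that list was 8.37 in the middle villus and 6.05 in the crypt, where 7 of the markers were dim. Of the 4 T and NK markers measured in both parts 2 were higher and 1 was lower. Macrophage, dendritic and class II markers, which share 4 genes with the defence list, were higher in 6 of 12 and lower in 1. The lower one was the lysozyme Lyz2, which is also counted among the Paneth markers. The part of immune cell markers in the defence result was not tested.

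Smooth muscle markers gave 1 higher and 1 lower of 9, with median levels of 9.27 in the middle villus and 9.41 in the crypt, and Myl9 at 10.92 in the middle villus and 11.36 in the crypt. Fibroblast and matrix markers gave 2 higher and 5 lower of 22, beside 19.1% and 29.5% of all genes, with Col1a2 differing by -0.86. Endothelial markers gave 2 higher and 0 lower of 8: Plvap was 9.47-fold higher and Cdh5 differed by 0.28. Goblet markers Tff3, Zg16 and Clca1 differed by -0.14, 0.29 and -0.62. Of the 4 Paneth markers, which belong to the crypt base, the phospholipase Pla2g2a was at least 14.01-fold lower, and the lysozyme Lyz2 2.31-fold lower. Another Paneth marker went the other way, with a difference of 1.79, within 2 SD. The 3 Paneth markers measured in both parts had a median of 0.59. Enteroendocrine hormones Cck, Sst and Gcg differed by -0.15, -0.40 and -0.15, and secretin, Sct, was at least 9.56-fold higher. Another enteroendocrine marker, measured in both parts, differed by -3.04, and the median of that list was 0.04. Counts of higher and lower markers were 0 and 0 of 3 for goblet cells, 1 and 2 of 4 for Paneth cells, and 1 and 1 of 10 for enteroendocrine cells. They were 2 and 1 of 4 for B and plasma cells, 1 and 0 of 3 for mast cells and granulocytes, and 0 and 0 of 1 for tuft cells. None of the 32 neuron, glia and erythrocyte markers was among the genes named here. The part of these cells in the epithelial results was not tested.

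In several families related genes went opposite ways. The 7 pairs given here were picked after their values were seen because the members went in opposite directions, so they are a description. Pck1, the cytosolic phosphoenolpyruvate carboxykinase, stood at 11.55 in the middle villus and 6.71 in the crypt, 28.7-fold higher, while Pck2, the mitochondrial form, was at least 76.8-fold lower from 10.41 in the crypt. Of the carnitine palmitoyltransferases, Cpt1b was 7.08-fold higher and Cpt1a at least 9.58-fold lower. Slc2a2 was 7.95-fold higher, and Slc2a1, the growth-linked glucose transporter, at least 8.58-fold lower. In the top villus Slc2a1 was not low, at 7.88 against 7.25 in the crypt. Of the lactate dehydrogenase subunits, Ldha was 2.19-fold higher and Ldhb at least 8.99-fold lower.

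Krt20 was 15.2-fold higher and Krt19, a keratin of simple epithelia, 5.23-fold lower, at 12.02 in the middle villus against 14.41 in the crypt. The amino acid exchanger Slc7a8 was 4.1-fold higher and Slc1a5 at least 7.33-fold lower. Of the translation repressors, Eif4ebp2 was at least 2.17-fold higher and Eif4ebp1 5.98-fold lower. Ldha and Eif4ebp2 lie within 2 SD between probes. Different probes cannot be set against each other in level, so no sum over a pair is given.

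**Figure D4:**
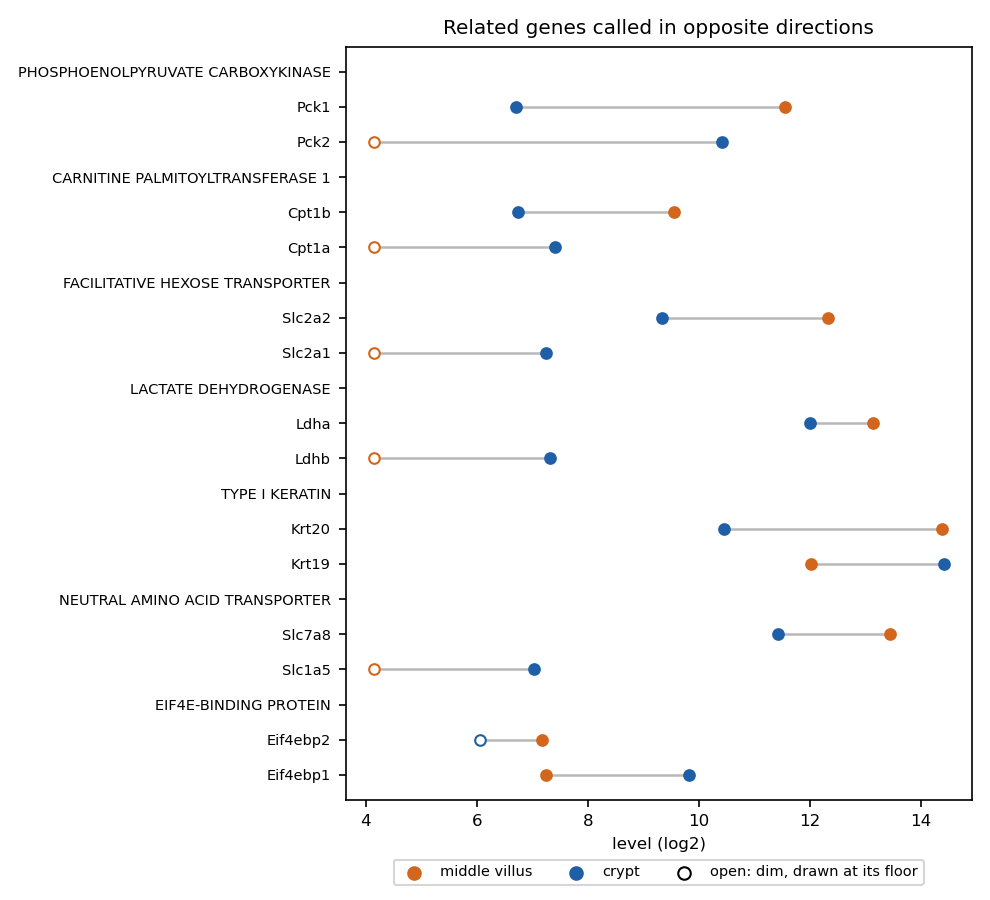
Level (horizontal axis, log2) in the middle villus (orange) and the crypt (blue) of 7 pairs of related genes, 1 sample each, with open points where a part was dim and is drawn at its floor. In each pair the upper gene is higher and the lower gene lower in the middle villus.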

How the data were processed

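RNA of 3 jejunal fractions cut on a cryostat was amplified linearly, labelled and hybridised to microarrays, per the labels' protocols. The deposited table holds 1 column of log2 values per part for 6653 probes; the scale was read from the values, and the authors' normalization, channel and genome build are not given in the sources used here. Each of the 3 deposited scanner files holds 22575 spots, none with a name or ID, and was not used. The platform annotation gives 1 gene symbol to 4820 probes (4379 genes) and leaves 1833 unnamed here; RefSeq's GRCr8 gene table held 4806 of the symbols' identifiers and changed 0.

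Values were compared as deposited. A probe entered when at or above the 25th percentile of its column in at least 1 part, lower values were set to that percentile, a difference that was only a bound was not allowed to pass 0, and probes were averaged per gene. Named genes are members of 54 lists, and the 15 largest differences of each sign measured in both parts that keep their sign under median scaling and quantile normalization; the 7 pairs were added. The members and lists were chosen with earlier results of these data known. The number of arrays limits the precision. Python 3.11.15 with numpy and pandas was used, and the steps were tested on simulated data. Both simulated columns were made from the crypt column, so the unequal floors of the data were not part of that test. Alternatives were other scalings, filters, floors, probe rules and fold limits.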

Additional observations from a re-analysis of the deposited data

How the results depend on the processing

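No paired analysis was possible because each part has 1 sample. Against 730 genes higher and 1127 lower, median scaling gave 716 and 1143, scaling to the 75th percentile 713 and 1144, the brightest probe 752 and 1118, and bounds allowed to pass 0 (chosen after seeing the data) 728 and 1202. Quantile normalization gave 935 and 939, the common floor 740 and 882, keeping dim values 937 and 1553, and probes measured in both parts 578 and 687, the last with fewer genes compared (2993). A limit of 4-fold gave 234 and 714, which follows from the stricter limit.

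Among named genes that were higher or lower as reported, 4 changed sign, for a cause that was not tested in Gsta1 and Jund. Sign changes of differences short of 2-fold were not counted. Gsta1 stood at 0.30 after quantile normalization, against -1.05. Idh3g stood at 0.20 with its brightest probe, against -1.998 as the mean over its probes, which disagree. Jund stood at -0.31 and Parp2 at -1.01 with dim values kept, against 1.204 and 1.93. Parp2 was measured in both parts, so its change comes from probe values dim in both parts that this setting adds. No list median of 1 or more on the log2 scale changed sign under any of these settings, but sizes that rest on bounds moved: with the common floor and after quantile normalization, in that order, the median was -2.41 and -2.91 for replication against -3.61, -1.42 and -1.68 for nucleotide synthesis against -2.67, -0.76 and -1.16 for DNA repair against -2.04, and -1.82 and -2.17 for the nucleolus against -2.64. Under median and 75th percentile scaling all 1160 named genes moved by less than the SD between probes; under quantile normalization 192 moved by more, and with the common floor 170 of 1130.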

Other observations

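Genes of the nuclear pore and of transport through it belong to none of the lists above and were gathered after their values had been seen, so the count is a description. Of 27 compared, 19 were lower in the middle villus and 1 higher, beside 29.5% and 19.1% of all genes, with a median difference of -2.09. Among the 18 measured in both parts 10 were lower, with a median of -1.11. With 1 floor of log2 6 in both parts 14 of 27 were lower, with a median of -1.04. Nup133, a scaffold nucleoporin, stood at 5.91 in the middle villus and 10.17 in the crypt, 19.2-fold lower. Nup188, of the inner ring, was 17.3-fold lower. Ran, the GTPase that gives transport its direction, stood at 10.16 in the middle villus against 13.34 in the crypt, 9.06-fold lower. Nup98 and Nup35 differed by 0.19 and 0.66, and the import receptor Tnpo2 was 2.04-fold higher.

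Some of the largest differences measured in both parts fall outside every list. Hsd17b11, a lipid droplet dehydrogenase, stood at 13.55 in the middle villus and 9.55 in the crypt. Ubd, the ubiquitin-like protein FAT10, was 15.8-fold higher, at 12.01 in the middle villus against 8.03 in the crypt. Col17a1, a hemidesmosome collagen, was 15.2-fold higher, at 10.05 in the middle villus against 6.13 in the crypt. On the lower side Hmgb2l2, named for its likeness to the chromatin protein Hmgb2, stood at 7.57 in the middle villus against 12.48 in the crypt, 29.9-fold lower, and Dph5, which acts in modifying elongation factor 2, was 26.7-fold lower.

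Along the whole column, the list medians of middle villus and top villus, each minus the same crypt sample and given in that order, were 1.99 and 2.96 for fat absorption, 2.03 and 1.05 for peptidases and amino acid carriers, and -0.49 and -2.16 for the respiratory chain. The shared crypt sample ties these values to each other.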
